A study of Mus musculus with 8 samples.

Results

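Solute carriers are the largest group of membrane transporters in mammals, and the Slc gene names number them by family. The members described here were the array probes with a gene name of the form Slc plus a family number that were well above background, by the scanner software's flag, on both arrays of at least 1 of 4 groups of mouse CD4 T cells. Of the 488 Slc probes on the array, 315 passed, for 214 of 308 Slc gene names. The members were thus chosen by their measured signal, and detection itself is given as a description without a test. The array holds 41174 non-control probes, of which 27161 passed the same rule.

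The groups carried the names naive, CD44lo, CD44hi and Treg, the last standing for regulatory T cells, and each held 2 samples with 1 array per sample. Every sample was of CD4+ T cells sorted from spleen and lymph nodes, pooled, of C57BL/6 males aged 15 weeks, and the title of the series names Ox40-cre/ROSA-YFP mice, in which Cre is driven from the gene of the costimulatory receptor Ox40 and marks cells that have expressed it with YFP. Neither the sort markers nor the YFP status of a group is in the labels. Samples are numbered 1 and 2 in each group, and no label ties a number to an animal, a pool or a day. The p-values therefore set group differences against the spread among these samples, and that spread may be technical.

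Solute carriers move amino acids, sugars, nucleosides, metals, ions, vitamins and metabolic intermediates across the plasma membrane, the inner mitochondrial membrane and the membranes of the Golgi, lysosome and endosomes. In T cells, activation is known to raise uptake of glucose and amino acids, and several carriers (the glucose transporters Slc2a1 and Slc2a3, the large neutral amino acid transporter Slc7a5 with its partner Slc3a2, and the glutamine transporter Slc1a5) are textbook parts of that response. Many carriers need a partner: monocarboxylate transporters need the chaperones Bsg or Emb, and sodium-coupled carriers depend on the gradient made by the sodium pump.

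Levels are given as a log2 level, the log2 processed signal minus the 75th percentile of its array, so that 0 is that percentile; a level describes 1 probe across samples and is not set against another probe's. Differences are log2 differences ± the standard error of the limma fit, with 2 arrays per group, and a probe was called where limma's Benjamini-Hochberg adjusted p, over all 27150 probes tested, was under 0.05. Of the 315 probes, 269 (182 gene names) were well above background on all 8 arrays, and the counts below are over these. The other 46 entered through the groups in which they were bright. Where such a probe was dim on both arrays of a group, its difference is given as a lower bound on the fold ("at least N-fold"), with no p: the bright group's mean was set against, on each dim array, the higher of the probe's own signal and the lowest signal among probes well above background.

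Arrays differed most within the naive group. Naive array 2 had the lowest 75th percentile of signal, 639, against 991 to 1337 for the rest, and the SD over Slc probes of the difference between replicates was 0.57 in naive against 0.26 to 0.33 (log2) in the other groups. The fit gives each probe 1 spread shared by the 4 groups. For a probe that varied most in naive, that spread is too small for naive and too large for the other groups. Counts of calls with and without naive are therefore not on an equal footing. CD4 T cell markers (5 of 5 measured) were well above background in all groups, and the 3 regulatory T cell markers (Foxp3, Il2ra and Ctla4) had a summed level (log2 of the sum of their scaled signals) of 3.92 to 4.04 in Treg, -2.95 to -2.89 in naive, 1.79 to 1.98 in CD44lo and 1.35 to 1.45 in CD44hi. Markers of other cells moved with the groups. The 6 B cell markers had a summed level of -2.32 to -1.43 in naive, where Ms4a1, Pax5 and Cd22 were dim, 0.62 to 1.19 in CD44lo, 1.75 to 2.00 in CD44hi and 2.05 to 2.11 in Treg. The B cell sum moved with Cd79b, Cd22 and Ms4a1, while Cd79a lay between -6.44 and -5.62 on all arrays. The 3 plasma cell markers ran from -1.39 to -1.07 in naive, where Sdc1 was dim, to 2.01 to 3.28 in CD44hi and 1.87 to 2.95 in Treg, and the 6 myeloid and dendritic markers from -1.13 to -0.91 in naive, where Cybb was dim, to 0.23 to 0.28 in CD44hi and -0.02 to 0.17 in Treg. The myeloid sum rose through Cybb, at -7.45 and -6.76 in naive and -0.30 and -0.32 in CD44hi; Itgax was lower in CD44hi (-4.47 and -4.83) and Treg (-5.81 and -5.97) than in naive (-3.04 and -2.67), Itgam was lower in both too, and Csf1r was lower in Treg. The summed level of the 5 CD8 T and NK markers was 3.89 to 4.40 in naive and 2.39 to 3.05 in the other groups, carried by Cd8b1 and Klrd1, while Klrb1c was lowest in naive (-4.90 and -4.52, against -0.39 on both CD44hi arrays). The part of these cells in the differences from naive below was not tested, and in bulk samples fewer cells of a type and less RNA per cell cannot be told apart.

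Promoter sequences are shown for 5 carriers on which the results turn: 2 members of the Slc22 cluster on chromosome 11 (Slc22a5, with its near neighbour Slc22a4), the Treg-high Slc22a2, the carrier Slc7a10 that was dim in naive cells, and the zinc exporter Slc30a1. Each is the 250 bases before the RefSeq start (build GRCm38.p6), 5′ to 3′ on the gene's strand; of the 214 names, 165 had a promoter in that table. Capitals mark matches, on either strand, to 6 motifs: TGTTTAC (forkhead core), TGTGGT (Runx core), CACGTG (E-box), TGANTCA (AP-1 site), TGCACNC (metal response core) and GGGCGG (GC box).

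Slc22a5, chr11:53891704-53891953, minus strand: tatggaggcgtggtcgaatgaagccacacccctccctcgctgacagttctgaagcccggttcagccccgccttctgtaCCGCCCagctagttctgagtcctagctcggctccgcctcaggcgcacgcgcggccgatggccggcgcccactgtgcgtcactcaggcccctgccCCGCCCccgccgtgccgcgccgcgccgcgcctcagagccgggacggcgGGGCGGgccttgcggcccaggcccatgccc

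Slc22a4, chr11:54028105-54028354, minus strand: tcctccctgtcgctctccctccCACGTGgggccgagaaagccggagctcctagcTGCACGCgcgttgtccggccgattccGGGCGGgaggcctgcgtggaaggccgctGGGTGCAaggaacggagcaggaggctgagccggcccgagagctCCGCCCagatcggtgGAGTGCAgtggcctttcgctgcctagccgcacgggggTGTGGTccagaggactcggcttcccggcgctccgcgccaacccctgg

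Slc22a2, chr17:12583939-12584188, plus strand: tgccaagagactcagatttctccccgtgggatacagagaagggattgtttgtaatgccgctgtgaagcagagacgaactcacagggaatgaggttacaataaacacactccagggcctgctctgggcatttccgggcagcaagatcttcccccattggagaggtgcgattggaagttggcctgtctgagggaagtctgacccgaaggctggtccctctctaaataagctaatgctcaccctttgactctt

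Slc7a10, chr7:35186135-35186384, plus strand: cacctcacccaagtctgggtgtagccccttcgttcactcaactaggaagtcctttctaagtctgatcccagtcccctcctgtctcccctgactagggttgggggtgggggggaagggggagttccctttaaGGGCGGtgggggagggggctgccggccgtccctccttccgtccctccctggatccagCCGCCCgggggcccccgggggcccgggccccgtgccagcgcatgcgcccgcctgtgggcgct

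Slc30a1, chr1:191906531-191906780, plus strand: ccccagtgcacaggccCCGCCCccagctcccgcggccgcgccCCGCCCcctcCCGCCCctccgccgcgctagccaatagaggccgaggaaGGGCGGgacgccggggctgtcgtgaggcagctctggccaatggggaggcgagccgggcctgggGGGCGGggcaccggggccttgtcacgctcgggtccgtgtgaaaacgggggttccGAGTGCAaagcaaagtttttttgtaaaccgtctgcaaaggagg

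The Slc22a5 window held 3 GC boxes and none of the other motifs, and the Slc22a4 window held 1 E-box, 1 Runx core, 3 metal response cores and 2 GC boxes. The Slc22a2 window held no match. The Slc7a10 window held 2 GC boxes, and the Slc30a1 window held 5 GC boxes and 1 metal response core. Among all 32851 promoter windows of that length, 3.17% held the forkhead core, 14% the Runx core, 6.02% the E-box, 6.75% the AP-1 site, 10.4% the metal response core and 32.7% the GC box. A match is a description of the letters in the window.

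Against naive cells, fewer carriers were called in CD44lo than in CD44hi or Treg, which was also so among all probes. In CD44lo, 10 of the 269 probes were called higher (2.58% of all probes well above background on all 8 arrays were) and 0 lower by limma (0.465%); at an unadjusted p under 0.05, 31 were higher and 31 lower, and the authors' deposited table in the same limma test gave 13 higher and 5 lower. In CD44hi, 34 were higher (8.87%) and 46 lower (14%), and in Treg 31 were higher (7.66%) and 34 lower (9.05%). Among CD44lo, CD44hi and Treg the counts were smaller: CD44hi against CD44lo gave 7 higher (3.18%) and 13 lower (2.78%), Treg against CD44lo 9 higher (2.15%) and 5 lower (1.43%), and Treg against CD44hi 15 higher (3.36%) and 9 lower (2.54%). In all, 104 of the 269 were called in at least 1 of the 6 comparisons and 165 in none. The median log2 difference of the 269 stood beside that of all probes, at -0.10 and -0.11 for CD44lo, -0.14 and -0.16 for CD44hi and -0.18 and -0.18 for Treg against naive. The comparisons with naive share the 2 naive arrays.

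Single arrays moved these counts, a group left with 1 array being assumed to vary like the others. Without naive array 1 the numbers called rose to 92, 135 and 138 for CD44lo, CD44hi and Treg against naive. The count for CD44lo against naive was 6 without CD44lo array 2. CD44hi against naive gave 47 and 35 without CD44hi array 1 and 2, and Treg against naive gave 30 and 28 without Treg array 1 and 2 and 40 without either CD44lo array. CD44hi against CD44lo gave 3, 2, 1 and 3 without CD44hi array 1 and 2 and CD44lo array 1 and 2, 8 without either Treg array and 46 without either naive array. Treg against CD44lo gave 2 and 3 without CD44lo array 1 and 2, 3 without either Treg array and 26 without either naive array. Treg against CD44hi gave 12 without either CD44hi array, 5 and 8 without Treg array 1 and 2, and 48 without either naive array.

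**Figure D1:**
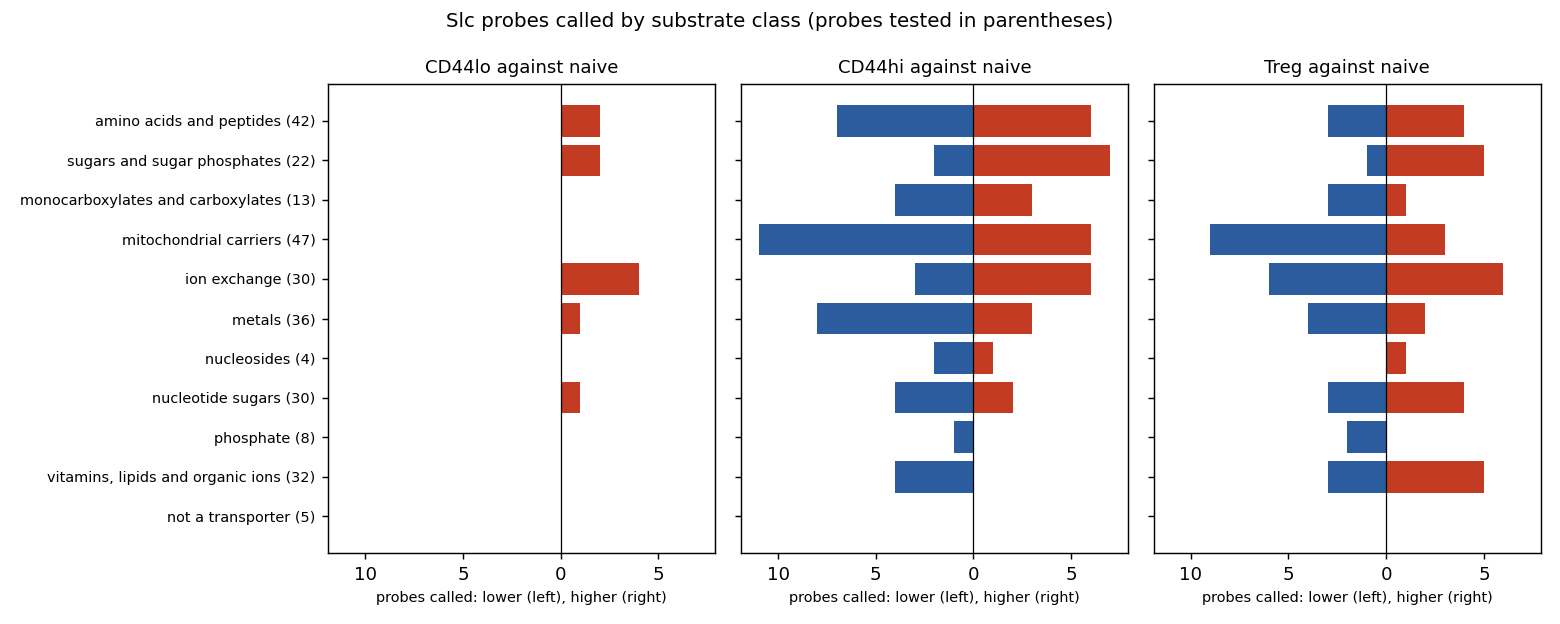
Slc probes called against naive (limma, adjusted p under 0.05) by substrate class, assigned by family number, as counts to the left of 0 (lower) and to the right (higher), over the 269 probes well above background on all 8 arrays. CD44lo has bars to the right only, and the mitochondrial carriers, with 47 probes the largest class, have the most probes called lower in CD44hi (11) and Treg (9).

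Amino acid and peptide carriers were called in both directions. Of the 42 probes of this class, 6 were higher and 7 lower in CD44hi (8.87% and 14% of all probes), and 4 higher and 3 lower in Treg (7.66% and 9.05%), against naive. Substrate classes were assigned by family number, so a class can hold carriers of other substrates. The higher calls here include Slc43a3 and Slc6a8 in both groups. Slc43a3, a purine nucleobase transporter of a family that also carries amino acids, had log2 levels of -2.24 and -2.50 in naive, -0.85 and -0.44 in CD44lo, 0.89 and 1.13 in CD44hi and 0.61 and 1.04 in Treg. It was higher than naive by 1.73 ± 0.23 in CD44lo (limma adjusted p = 0.0079), 3.38 ± 0.23 in CD44hi (adjusted p = 0.00018) and 3.20 ± 0.23 in Treg (adjusted p = 0.00025). No array of any other group overlapped naive, and CD44lo lay between. Of all probes, 16.27%, 20.23% and 17.83% lay above naive without overlap in CD44lo, CD44hi and Treg. The creatine transporter Slc6a8 was at -5.42 and -5.06 in naive, -3.21 and -2.59 in CD44lo, -1.89 and -1.74 in CD44hi and -3.44 and -3.50 in Treg. It rose in all 3 groups, by 3.42 ± 0.24 in CD44hi (adjusted p = 0.00021), and was lower in Treg than in CD44hi by a log2 difference of -1.65 ± 0.24 (adjusted p = 0.011). The call of Slc43a3 in CD44lo was lost without CD44lo array 2 or naive array 2 (adjusted p up to 0.0698), and that of Slc6a8 between Treg and CD44hi without either Treg array or CD44hi array 2 (adjusted p up to 0.0829).

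Carriers dim in naive cells included the neutral amino acid transporter Slc7a10, at -8.39 and -7.97 in naive and -0.38 and 0.57 in CD44lo, -1.08 and -0.41 in CD44hi and 0.63 and 0.89 in Treg. It was at least 69.9-fold higher in CD44lo, at least 39-fold in CD44hi and at least 111-fold in Treg. Slc43a1, a transporter of large neutral amino acids, was at -7.14 and -6.38 in naive and between -1.61 and -0.19 in the other 3 groups, at least 28.2-fold, 50.6-fold and 25.5-fold higher in CD44lo, CD44hi and Treg. Slc15a3, a lysosomal peptide and histidine transporter expressed in myeloid cells, was at -7.12 and -7.69 in naive, -3.87 and -3.55 in CD44lo, -2.08 and -1.57 in CD44hi and -2.04 and -1.85 in Treg. It was at least 18.5-fold higher in CD44hi and at least 17-fold in Treg. Of the myeloid markers, Cybb was higher in the same groups while Itgax and Itgam were lower, as given above, and the part of myeloid cells in this was not tested.

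Slc3a2, the heavy chain of several amino acid exchangers, was between 3.62 and 3.91 on all 8 arrays by its brighter probe, with a difference of -0.08 ± 0.16 in CD44hi and -0.10 ± 0.16 in Treg, neither called. The glutamine transporter Slc1a5 was at 3.76 and 3.62 in naive and 4.28 and 4.27 in CD44hi, higher by 0.58 ± 0.14 (adjusted p = 0.025). Slc7a5, the light chain that pairs with Slc3a2 to carry large neutral amino acids, was lower in CD44hi by a log2 difference of -0.98 ± 0.22 (adjusted p = 0.022), and was at -0.15 and 0.21 in Treg against -0.23 and 0.20 in naive. Treg was higher than CD44hi by 1.02 ± 0.22 (adjusted p = 0.045). The cationic amino acid transporter Slc7a3 and the cystine transporter subunit Slc3a1 showed the same order: both fell in CD44hi against naive, by 1.59 ± 0.20 (adjusted p = 0.0019) and 1.47 ± 0.19 (adjusted p = 0.0025) on the log2 scale, and both were higher in Treg than in CD44hi, by 1.1 ± 0.20 (adjusted p = 0.022) and 1.47 ± 0.19 (adjusted p = 0.0071). Leaving out 1 array ended the calls of Slc1a5 (any CD44hi, CD44lo or Treg array, adjusted p up to 0.137) and of Slc7a5 against naive (either CD44hi array or naive array 2, up to 0.105). It also ended the Treg against CD44hi calls of Slc7a5 (any array but the naive ones, up to 0.246), Slc7a3 (any Treg or CD44hi array, up to 0.158) and Slc3a1 (Treg array 1, 0.0682).

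Slc38a1 and Slc38a2, sodium-coupled neutral amino acid transporters, are neighbours on chromosome 15. All 4 probes of Slc38a2 were lower in CD44hi than in naive, by log2 differences from -1.31 ± 0.25 to -0.90 ± 0.18, and 2 of the 4 were called lower in Treg. By probe A_51_P458384, naive was at 3.91 and 4.28 and CD44lo at 3.52 and 3.61. CD44hi was at 2.93 and 3.00 and Treg at 3.24 and 3.32. Every group lay below naive without overlap, as did 35.35%, 40.55% and 41.43% of all probes in CD44lo, CD44hi and Treg. The CD44lo difference of -0.53 ± 0.17 was not called. Of the 6 probes of Slc38a1, 1 was called against naive, A_52_P232648, higher in CD44hi by 0.62 ± 0.15 (adjusted p = 0.024). That call was lost under quantile scaling, under normexp with quantile scaling, in the authors' deposited table, and without any 1 CD44hi or CD44lo array (adjusted p up to 0.126). Without either CD44hi array, 2 of the 4 Slc38a2 probes were no longer called in CD44hi (A_51_P199314 and A_52_P459046, up to 0.0762), and without either Treg array the 2 Treg calls were lost (up to 0.106).

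**Figure D2:**
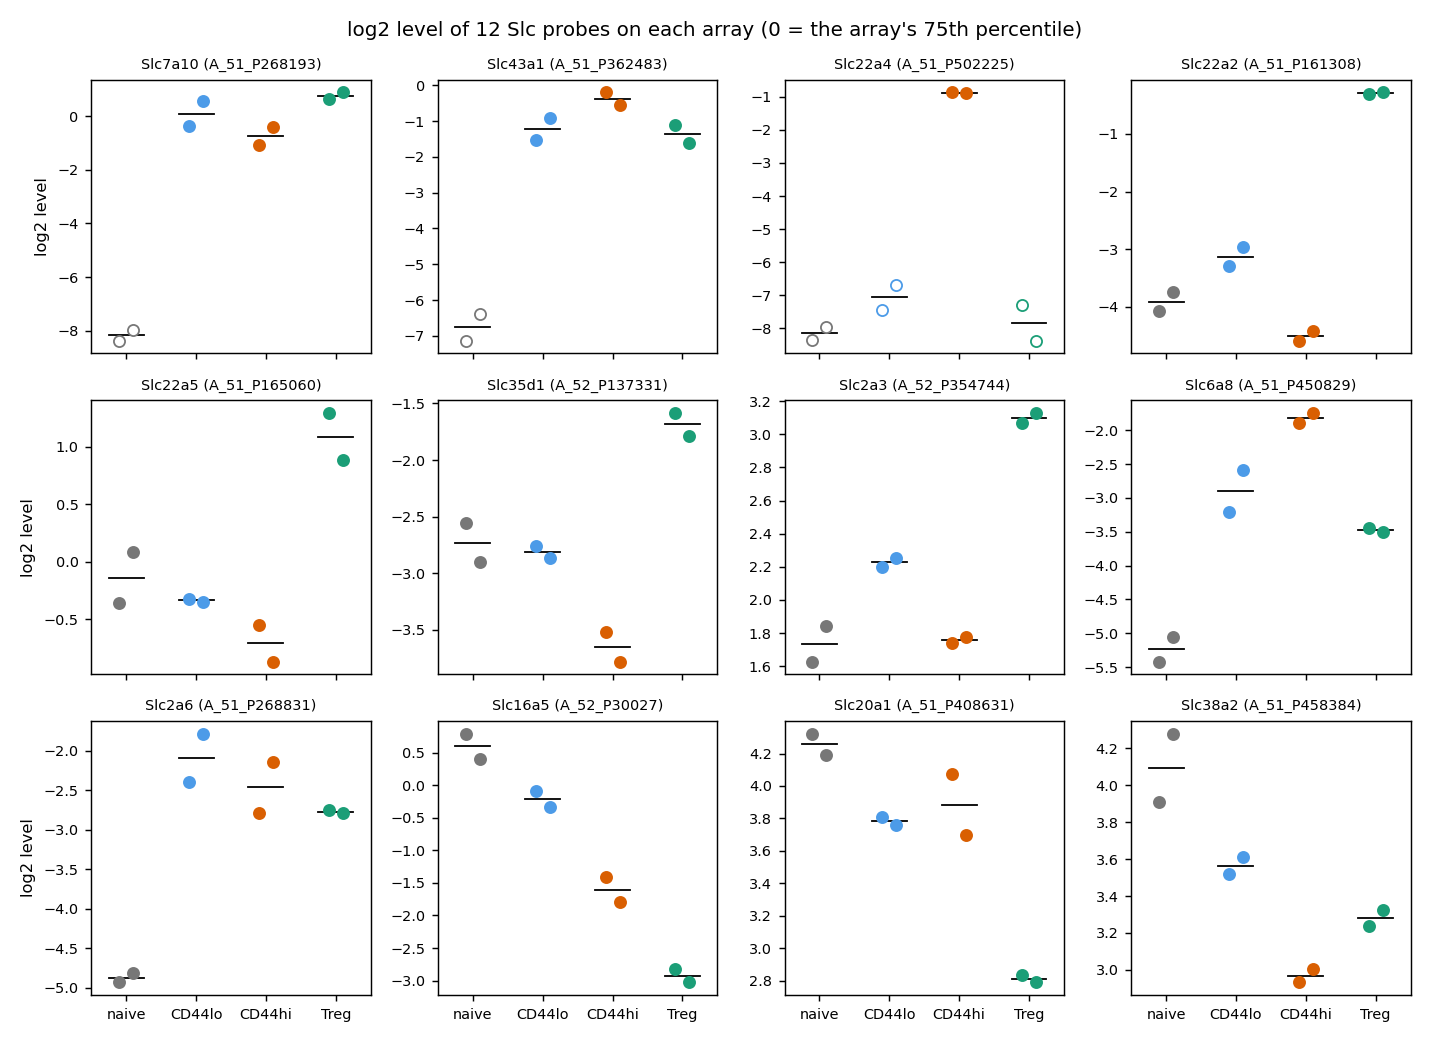
Log2 level (0 is the array's 75th percentile) of 12 Slc probes on each of the 8 arrays; points are arrays, lines group means, and an open circle marks a group in which the probe was not well above background on both arrays. Slc7a10 and Slc43a1 are dim in naive only, Slc22a4 is bright in CD44hi only, and Slc22a2 stands highest in Treg.

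Of the 22 probes of sugar carriers, 2 were higher than naive in CD44lo (2.58% of all probes), 7 higher and 2 lower in CD44hi (8.87% and 14%) and 5 higher and 1 lower in Treg (7.66% and 9.05%). Slc2a6, a hexose transporter of intracellular membranes, was at -4.94 and -4.82 in naive, -2.40 and -1.78 in CD44lo, -2.78 and -2.14 in CD44hi and -2.76 and -2.79 in Treg. It rose in all 3 groups, by 2.78 ± 0.28 (adjusted p = 0.0023), 2.41 ± 0.28 (adjusted p = 0.0015) and 2.10 ± 0.28 (adjusted p = 0.0032). Slc45a4 was higher in all 3, by 1.12 to 1.36 for its probe A_52_P281172, and the CD44lo call was lost without either CD44lo array (adjusted p up to 0.0996). The facilitative glucose transporter Slc2a3 was called against naive in Treg and in neither other group. By probe A_52_P354744 it was at 1.63 and 1.84 in naive, 2.20 and 2.25 in CD44lo, 1.74 and 1.78 in CD44hi and 3.07 and 3.13 in Treg. Treg was higher than naive by 1.36 ± 0.15 (adjusted p = 0.0013) and than CD44hi by 1.34 ± 0.15 (adjusted p = 0.0038), and the second probe A_52_P371514 was called in the same direction in both. The calls of the second probe were lost without either Treg array (adjusted p up to 0.118 against naive and 0.111 against CD44hi), and also without either CD44lo array against naive and without CD44hi array 2 against CD44hi.

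Slc2a1, the main glucose transporter of activated T cells, was not called in any comparison, with levels of 2.11 and 2.99 in naive and 2.18 to 2.36 in the other groups. Slc2a8, an intracellular glucose transporter, was higher in CD44hi by both probes, by 0.92 ± 0.21 (adjusted p = 0.021) and 1.1 ± 0.18 (adjusted p = 0.0063). Slc37a2, a sugar phosphate exchanger of the endoplasmic reticulum, rose in CD44hi by 1.24 ± 0.23 (adjusted p = 0.011) and 1.36 ± 0.24 (adjusted p = 0.0083) for its 2 probes, and both were lower in Treg than in CD44hi. Without CD44hi array 2 neither Slc37a2 probe was called against naive (adjusted p up to 0.074), and the Treg against CD44hi calls were lost without any 1 array of these groups, one of them also without either naive array (up to 0.262). The smaller Slc2a8 call was lost without either CD44hi array (0.128). Among genes of the same pathways, Hk2, a hexokinase, rose in CD44hi by 3.14 ± 0.39 (adjusted p = 0.0019) and in Treg by 3.97 ± 0.39 (adjusted p = 0.00087). Genes listed for glucose transporter turnover did not move together. Arrdc4, an arrestin that promotes removal of glucose transporters, rose in all 3 groups, by 3.25 ± 0.36 in Treg (adjusted p = 0.0015). Txnip was lower in CD44hi than in naive by a log2 difference of -0.995 ± 0.252 (adjusted p = 0.031). Txnip was not called against naive in CD44lo or Treg, and Arrdc3 was not called in any comparison.

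Of the Slc22 organic cation and carnitine carriers, Slc22a2, Slc22a5 and Slc22a21 were called higher in Treg, and Slc22a4 was not. Slc22a2, an organic cation transporter, was at -4.07 and -3.75 in naive, -3.30 and -2.96 in CD44lo, -4.59 and -4.42 in CD44hi and -0.30 and -0.28 in Treg. Treg was higher than naive by 3.62 ± 0.19 (adjusted p = 7.9e-05), than CD44lo by 2.84 ± 0.19 (adjusted p = 0.0018) and than CD44hi by 4.22 ± 0.19 (adjusted p = 0.00033). Arrays did not overlap, and of all probes 17.83%, 24.58% and 28.75% were higher in Treg without overlap in these comparisons. The carnitine transporter Slc22a5 was higher in Treg than in naive by both its probes, by 1.23 ± 0.23 (adjusted p = 0.013) and 1.78 ± 0.21 (adjusted p = 0.0018). By A_51_P165060 it was at -0.36 and 0.08 in naive, -0.32 and -0.35 in CD44lo, -0.55 and -0.87 in CD44hi and 1.29 and 0.88 in Treg. Its neighbour Slc22a21, another carnitine transporter, was at -2.54 and -2.97 in naive, -2.44 and -2.42 in CD44lo, -2.59 and -2.52 in CD44hi and -0.96 and -1.19 in Treg, higher in Treg than naive by 1.69 ± 0.19 (adjusted p = 0.0016). Without Treg array 1 the call of A_51_P165060 against naive was lost (adjusted p = 0.079).

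In the RefSeq order of chromosome 11, Slc22a5, Slc22a21 and Slc22a4 are consecutive and follow Il4, Il13, Rad50, Il5 and Irf1. Slc22a4, the third of them and a transporter of ergothioneine and organic cations, had another pattern. It was at -0.86 and -0.89 in CD44hi, and not well above background on any array of naive (-8.34 and -7.96), CD44lo (-7.44 and -6.68) or Treg (-7.30 and -8.38). It was at least 35.7-fold higher in CD44hi than in naive and at least 48.8-fold higher than in CD44lo, and Treg was at least 54.7-fold lower than CD44hi. So of 3 neighbouring carriers, 2 were called higher in Treg and 1 was bright in CD44hi alone. The Slc22a4 probe was 1 of 4 members on exactly 2 arrays. Slc30a3 and 1 probe of Slc39a8 were likewise bright in CD44hi alone, and Slc15a1 in naive alone. Just outside the rule were 50 probes bright on at most 1 array of each group, such as Slc29a3 with a highest level of -4.07 and Slc1a1 with -4.33.

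**Figure D3:**
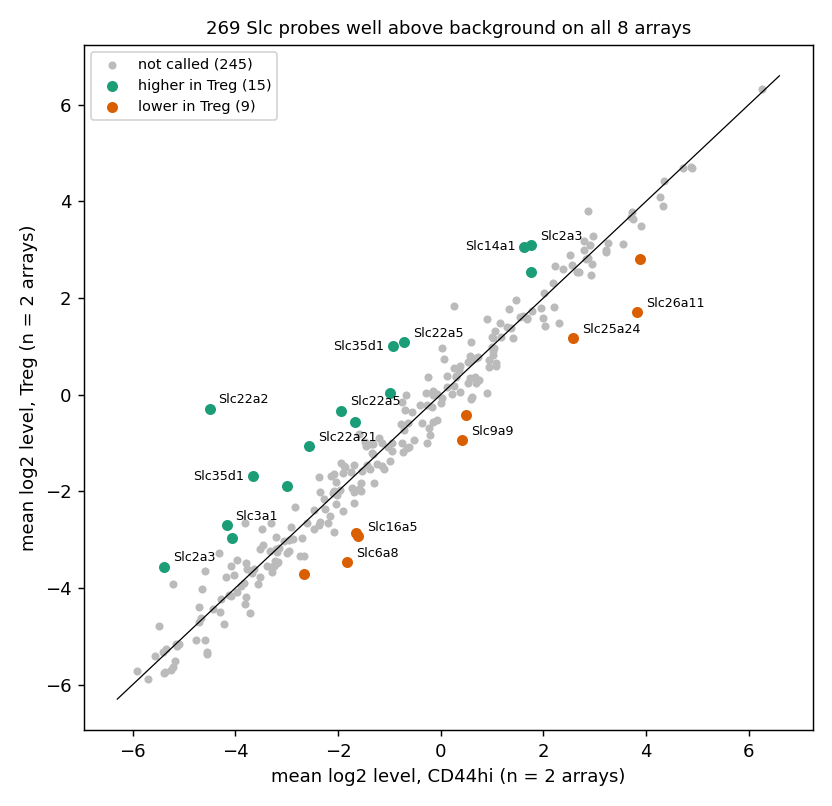
Mean log2 level in Treg against CD44hi (2 arrays each) for the 269 Slc probes well above background on all 8 arrays, with the line of equality; green and orange points are called higher (15) and lower (9) in Treg by limma. Slc22a2 lies farthest above the line, and Slc26a11 farthest below it.

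Ion exchangers and the cotransporters of cations and chloride also moved both ways. Slc12a5, a potassium-chloride cotransporter, was at -5.12 and -4.67 in naive, -3.09 and -3.04 in CD44lo, -2.27 and -2.26 in CD44hi and -2.06 and -2.24 in Treg, and rose in all 3 groups, by 2.74 ± 0.19 in Treg (adjusted p = 0.0002). Slc12a8 was at -4.02 and -3.49 in naive, -1.75 and -1.30 in CD44lo, -1.76 and -1.59 in CD44hi and -0.51 and -0.64 in Treg, higher in Treg than in naive by 3.18 ± 0.24 (adjusted p = 0.0003). Slc12a7, another potassium-chloride cotransporter, fell in CD44hi by 1.08 ± 0.15 (adjusted p = 0.0033) and in Treg by 1.34 ± 0.15 (adjusted p = 0.0016). Slc26a11, an anion transporter, was at 3.15 and 3.45 in naive, 3.47 and 3.53 in CD44lo, 3.78 and 3.88 in CD44hi and 1.83 and 1.60 in Treg, lower in Treg than in CD44hi by a log2 difference of -2.12 ± 0.17 (adjusted p = 0.0015). The endosomal sodium-proton exchanger Slc9a9 was higher in CD44hi than in naive by 1.16 ± 0.17 (adjusted p = 0.0036) and lower in Treg than in CD44hi by a difference of -1.36 ± 0.17 (adjusted p = 0.0056; 0.0539 without Treg array 2). Slc9a7, its relative of the Golgi, was dim in naive by both probes and at least 17.3-fold higher in CD44hi by the brighter one, which was at -1.92 and -1.93 there. Slc24a3, a sodium-calcium exchanger, was at least 9.78-fold, 7.74-fold and 5.71-fold higher in CD44lo, CD44hi and Treg.

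The sodium pump, which drives many of these carriers, was lower outside naive cells. Its subunit Atp1b1 was at 3.19 and 3.81 in naive, 2.43 and 2.37 in CD44lo, -0.69 and -0.66 in CD44hi and 1.00 and 0.81 in Treg. It fell by 1.1 ± 0.22 (adjusted p = 0.046), 4.18 ± 0.22 (adjusted p = 8e-05) and 2.60 ± 0.22 (adjusted p = 0.00052) on the log2 scale. Nedd4l, a ubiquitin ligase of several carriers and channels, fell in CD44hi by 2.19 ± 0.15 (adjusted p = 0.00017), and Stk39, a kinase of the cation-chloride cotransporters, rose there by 1.49 ± 0.15 (adjusted p = 0.00075). Of 34 partner genes measured, 6 were called higher and 9 lower in CD44hi, and 5 higher and 8 lower in Treg, against naive. Among all probes well above background on all 8 arrays the shares were 8.87% and 14% in CD44hi and 7.66% and 9.05% in Treg.

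Of the 36 probes of metal carriers, 3 were higher and 8 lower in CD44hi, and 2 higher and 4 lower in Treg, against naive; over all probes lower calls also outnumbered higher ones (8.87% higher and 14% lower in CD44hi, 7.66% and 9.05% in Treg). The zinc importer Slc39a4 was at 0.72 and 0.89 in naive, 2.34 and 2.86 in CD44lo, 3.42 and 3.67 in CD44hi and 3.06 and 3.18 in Treg, higher by 1.79 ± 0.21 (adjusted p = 0.0048), 2.74 ± 0.21 (adjusted p = 0.00029) and 2.32 ± 0.21 (adjusted p = 0.00069). The zinc transporter Slc30a4 was at -1.19 and -0.72 in naive, -2.01 and -1.90 in CD44lo, -3.65 and -3.32 in CD44hi and -2.90 and -2.65 in Treg, and fell by 2.53 ± 0.22 in CD44hi (adjusted p = 0.00044) and 1.82 ± 0.22 in Treg (adjusted p = 0.0021). Slc30a1, the zinc exporter of the plasma membrane, fell by 0.61 ± 0.15 in CD44hi (adjusted p = 0.031) and 0.68 ± 0.15 in Treg (adjusted p = 0.026) by probe A_51_P300572, and its other probe was not called. Both calls were lost without any 1 array of CD44lo, CD44hi or Treg (adjusted p up to 0.155). Slc30a2, a zinc transporter of vesicles, was dim in naive and at least 14.3-fold higher in Treg, at -2.41 and -1.98. The 2 metallothioneins measured, which bind zinc, moved in opposite directions. Mt1 rose by 0.97 ± 0.16 in CD44hi (adjusted p = 0.0064) and 1.1 ± 0.16 in Treg (adjusted p = 0.0045). Mt2 was lower than naive in Treg by a log2 difference of -0.71 ± 0.19 (adjusted p = 0.046). Its difference of -0.60 ± 0.19 in CD44hi was not called.

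Among monocarboxylate carriers, 3 of 13 probes were higher and 4 lower in CD44hi (8.87% and 14% of all probes), and 1 higher and 3 lower in Treg (7.66% and 9.05%), against naive. Slc16a5, a member of this family, was at 0.80 and 0.40 in naive, -0.08 and -0.34 in CD44lo, -1.41 and -1.80 in CD44hi and -2.82 and -3.03 in Treg. It fell by 2.20 ± 0.22 in CD44hi (adjusted p = 0.00079) and 3.52 ± 0.22 in Treg (adjusted p = 0.00015), and the 4 groups did not overlap. CD44lo was not called against naive. Slc16a10, an aromatic amino acid transporter, fell in CD44hi by 1.53 ± 0.24 (adjusted p = 0.0054) and in Treg by 2.12 ± 0.24 (adjusted p = 0.0017) for probe A_51_P448618. Slc16a3, a lactate exporter, was at -1.14 and -0.40 in naive and between 0.34 and 1.1 elsewhere, and rose in CD44hi by 1.36 ± 0.33 (adjusted p = 0.026) and in Treg by 1.87 ± 0.33 (adjusted p = 0.0098). Without either Treg array the Slc16a3 call in Treg was lost (adjusted p up to 0.0647), and its call in CD44hi was lost without CD44hi array 2, naive array 1 or either Treg array (up to 0.139). The lactate transporter Slc16a1 was not called against naive by any of its 3 probes. The chaperone Emb fell in Treg by 1.29 ± 0.16 (adjusted p = 0.0025). For Bsg, the other chaperone, the difference in Treg was upward, 0.65 ± 0.25, and not called.

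Of the 47 probes of mitochondrial carriers, 6 were higher and 11 lower in CD44hi (8.87% and 14% of all probes) and 3 higher and 9 lower in Treg (7.66% and 9.05%). Slc25a24, a calcium-regulated ATP-magnesium and phosphate carrier, was at 0.07 and 0.88 in naive, 0.86 and 1.19 in CD44lo, 2.50 and 2.64 in CD44hi and 1.1 and 1.24 in Treg by probe A_52_P515057. CD44hi was higher than naive by 2.09 ± 0.28 (adjusted p = 0.0027) and Treg lower than CD44hi by a difference of -1.41 ± 0.28 (adjusted p = 0.033). Slc25a13, an aspartate-glutamate carrier, rose by 1.91 ± 0.33 in CD44hi (adjusted p = 0.0078) and 1.47 ± 0.33 in Treg (adjusted p = 0.026). Slc25a37, the mitochondrial iron importer, fell in CD44hi by 1.48 ± 0.20 (adjusted p = 0.0031) for its brightest probe, and 2 of its 3 probes were called lower in both groups. Slc25a27, an uncoupling protein relative, fell in CD44hi by 1.49 ± 0.18 (adjusted p = 0.0018) for probe A_52_P104091. Without any 1 array of CD44lo, CD44hi or Treg the Slc25a24 call between Treg and CD44hi was lost (adjusted p up to 0.189), as was the Slc25a13 call in Treg without either Treg array (up to 0.16). The Slc25a37 calls in Treg were lost without any 1 array but naive array 1 (up to 0.214), and 1 of its calls in CD44hi without CD44hi array 2 (0.0519).

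The equilibrative nucleoside transporter Slc29a1 rose in CD44hi by 1.26 ± 0.22 (adjusted p = 0.0079) and Treg by 1.15 ± 0.22 (adjusted p = 0.014), while its relative Slc29a2 and the concentrative transporter Slc28a2 fell in CD44hi, by 1.47 ± 0.17 (adjusted p = 0.0015) and 1.14 ± 0.24 (adjusted p = 0.016). The phosphate transporter Slc20a1 was at 4.32 and 4.19 in naive, 3.81 and 3.76 in CD44lo, 4.07 and 3.70 in CD44hi and 2.83 and 2.79 in Treg, and fell in Treg by 1.45 ± 0.17 (adjusted p = 0.002); its second probe was not called. The CD44hi calls of Slc29a1 and Slc28a2 were lost without CD44hi array 2 (adjusted p = 0.0562 and 0.0996), and the Treg call of Slc29a1 without Treg array 2 (0.108). Slc35e4, an orphan relative of the nucleotide sugar transporters, rose in all 3 groups, by 2.23 ± 0.19 (adjusted p = 0.0013), 3.11 ± 0.19 (adjusted p = 0.00013) and 2.38 ± 0.19 (adjusted p = 0.00042).

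Slc35d1, which carries UDP-sugars into the endoplasmic reticulum, was called in opposite directions in CD44hi and Treg. By probe A_52_P137331 it was at -2.56 and -2.90 in naive, -2.76 and -2.86 in CD44lo, -3.52 and -3.78 in CD44hi and -1.58 and -1.79 in Treg. CD44hi was below naive by a difference of -0.92 ± 0.19 (adjusted p = 0.015) and Treg above it by 1.04 ± 0.19 (adjusted p = 0.011). The second probe, A_51_P266964, was higher in Treg than in naive by 1.26 ± 0.24 (adjusted p = 0.014), and its difference of -0.68 ± 0.24 in CD44hi was not called. The CD44hi call of A_52_P137331 was lost without CD44hi array 2 (adjusted p = 0.104), and the Treg calls were lost without Treg array 1 (up to 0.0848), that of A_52_P137331 also without Treg array 2. The choline transporter-like Slc44a2 fell in CD44hi by both its probes, by 1.04 ± 0.16 (adjusted p = 0.0045) and 0.98 ± 0.16 (adjusted p = 0.0066). The folate carrier Slc19a1 was higher in Treg than in CD44hi by 0.79 ± 0.15 (adjusted p = 0.026). Without CD44hi array 2 the smaller Slc44a2 difference was not called (0.0569), and the Slc19a1 call was lost without any 1 array of CD44lo, CD44hi or Treg (up to 0.165).

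Of the genes with Slc names that are not transporters (Slc4a1ap, Slc7a6os, Slc9a3r1 and Slc9a3r2), 5 probes were measured and limma called 0 against naive; at an unadjusted p under 0.05 the counts were 0 in CD44lo, 1 lower in CD44hi and 1 lower in Treg. Among the 214 gene names, 74 had 2 or more member probes. A call in at least 1 probe was made for 81 pairs of such a gene and a comparison, every probe was called in 30 of them, and no gene had probes called in opposite directions in the same comparison.

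**Figure D4:**
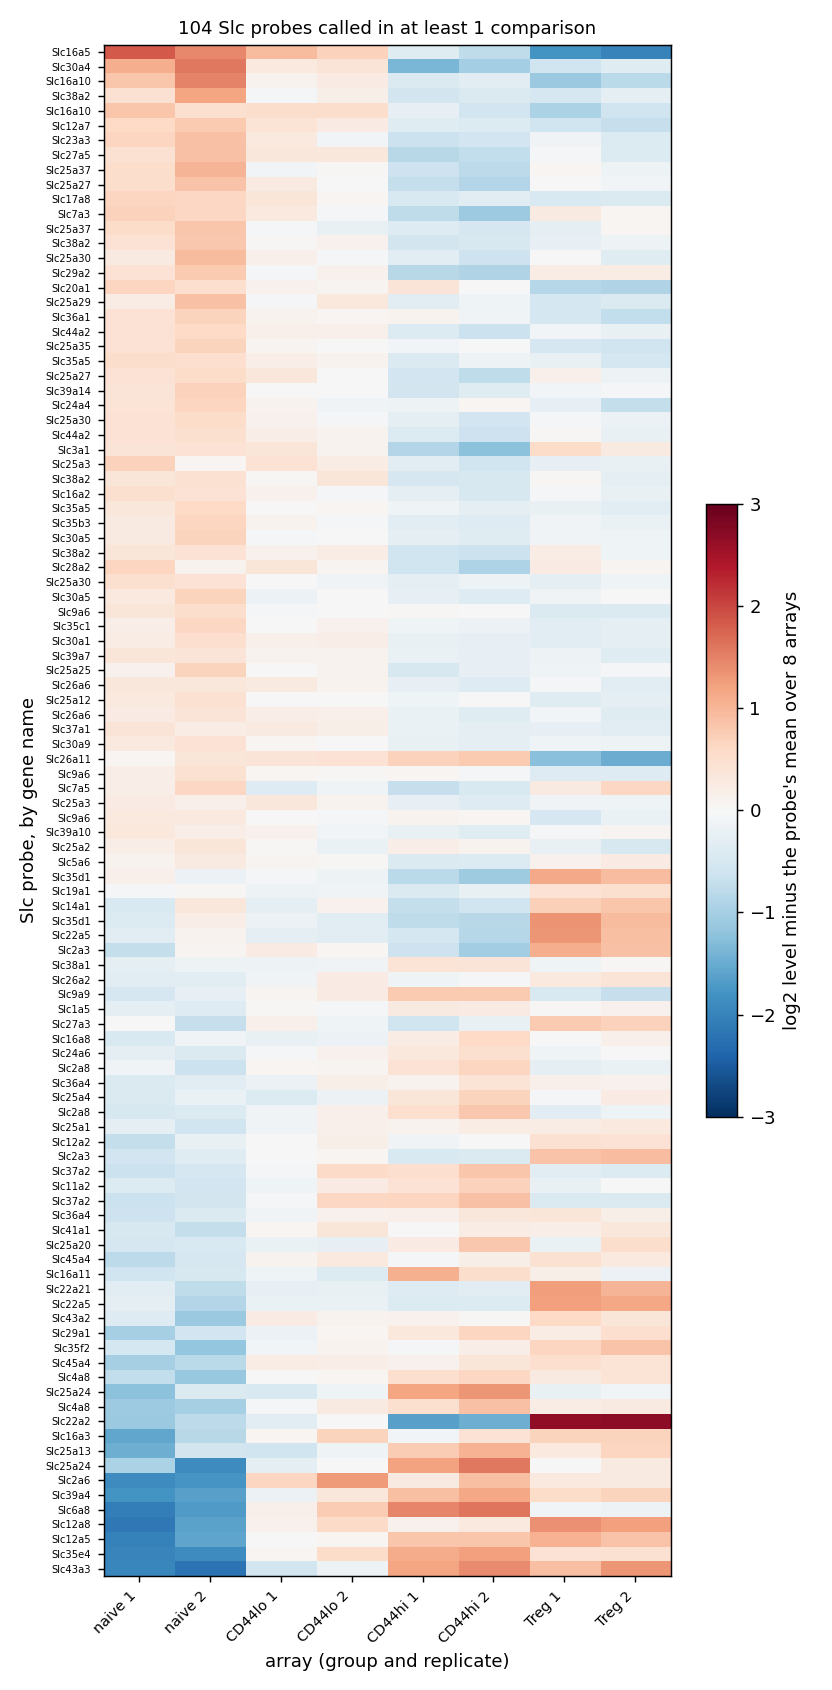
Log2 level minus the probe's mean over the 8 arrays for the 104 Slc probes called in at least 1 of the 6 comparisons; columns are arrays, rows probes ordered by the sum of the CD44hi and Treg differences from naive. Probes near the bottom, such as Slc43a3 and Slc35e4, are low on both naive arrays, and Slc16a5 at the top is high on them.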

How the data were processed

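Per the file headers, the authors read each Cy3 array with Feature Extraction 9.5.1.1; the deposited files give each spot's intensity (its processed signal is background-subtracted) and its flags (unit other). The authors' deposited value table is on a log2 scale, and the submitters' processing notes name limma. Spots flagged as outliers were left out, spots of a probe averaged, and log2 processed signal was scaled to each array's 75th percentile. All 6 pairs of groups were tested by lmFit, contrasts.fit and eBayes of limma 3.58.1 (R 4.3.3), in 1 fit of 8 arrays without a block (4 residual and 2.58 prior degrees of freedom), over 27150 probes; the number of arrays limits the precision. An exact permutation test of 2 arrays against 2 cannot go below p = 0.333. The fit was also run on simulated data in which the 4 groups shared 1 spread per probe. That run cannot show how the fit behaves where naive arrays vary more. Each comparison names up to 8 called probes a direction by size and up to 6 bounds a direction, and a set of lymphocyte transporters. The members and lists were chosen with earlier results of these data known. Alternatives changed background correction, scaling, the filter on dim probes, the choice of probe, blocks and the arrays used; those that left out an array of a group not compared were chosen after seeing the data. Promoters are RefSeq's; the array's own coordinates were not used here.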

Additional observations from a re-analysis of the deposited data

Results flagged for a closer look

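Slc35d1 was called in opposite directions in CD44hi and Treg against naive by probe A_52_P137331, and the difference itself was tested: Treg was higher than CD44hi by a log2 difference of 1.96 ± 0.19 (limma adjusted p = 0.0026). The other probe of the gene gave 1.94 ± 0.24 (adjusted p = 0.0058), no longer called without Treg array 1 (0.0535). With 2 arrays per group, single arrays could not be tested as outliers.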

How the results depend on the processing

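Of 108 named and called differences, 66 were called in each of the 11 settings other than leaving out an array in which their probe was tested, and 0 reversed in any setting. The number called for CD44lo against naive, 10, became 19 (13 higher, 6 lower) with normexp and quantile scaling and 18 (13 and 5) in the authors' deposited table. CD44hi against CD44lo, 20, became 35 and 32 in these, and Treg against CD44hi, 24, became 42 in both. Without the filter on dim probes the counts were 46 and 33 for CD44hi and Treg against naive, 5 for CD44hi against CD44lo, 3 for Treg against CD44lo and 12 for Treg against CD44hi. Fits of the compared groups alone gave 35 and 29 for CD44hi and Treg against naive. The slide as a block gave 10 for CD44hi against CD44lo. The cause was not tested. Leaving out 1 array gave 6 to 92, 35 to 135 and 28 to 138 for CD44lo, CD44hi and Treg against naive, and 1 to 46, 2 to 26 and 5 to 48 for CD44hi against CD44lo, Treg against CD44lo and Treg against CD44hi; a group left with 1 array was assumed to vary like the others.

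Scaling to the 75th percentile of probes detected on all arrays raised the median difference of all probes against naive by 0.11 to 0.12 (log2) and gave 40 higher and 40 lower in CD44hi and 38 higher and 28 lower in Treg. Quantile scaling gave 10 higher and 2 lower in CD44lo against naive and 9 higher and 3 lower in Treg against CD44lo. With the replicate number as a block, CD44lo, CD44hi and Treg against naive gave 16 (13 higher, 3 lower), 84 and 71 called, and CD44hi against CD44lo, Treg against CD44lo and Treg against CD44hi gave 24, 16 and 30. Across probes, the replicate 1 minus 2 differences of 2 groups correlated at 0.201 to 0.431 in 5 of 6 pairs of groups and at -0.00968 for naive and Treg. In naive with CD44lo (0.295) and CD44hi with Treg (0.431), arrays of 1 number also shared a slide. Slide 1 minus 2 differences gave the same values for these pairs, and -0.368 to 0.00968 for the others. What samples of 1 number share was not tested. The erythroid marker Hba-a1 was higher in replicate 1 than in replicate 2 in all 4 groups. Its levels were -1.65 and -3.02 in naive, -1.56 and -3.58 in CD44lo, -1.61 and -3.44 in CD44hi and -1.58 and -4.23 in Treg. Hbb-b1, another erythroid marker, had the same order in each group. With 2 numbers, and labels that do not say what they mark, a pairing is still not settled, and the fit reported has no block.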
